A study of Mus musculus with 8 samples.

Results

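The nuclear genes of respiratory complexes II to V were examined in the hearts of Lmna knockout mice at 2 weeks of age. The genes were chosen by name, with a rule that uses no measured value, although it was written with earlier results of these data known: all protein-coding genes whose GENCODE M21 symbol begins with Sdh, Uqcr, Cox4 to Cox8 or Atp5, with Cyc1, Cycs and Ndufa4. The rule finds 55 of the 21951 protein-coding genes of that annotation, on 19 chromosomes, and 54 of them have a row in the count tables; the second of a pair of genes named Atp5o is not analysed here. Of the 54, 47 had enough counts to be tested and 7 did not.

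RNA sequencing was done on 5 Lmna-/- hearts in which AAV9, an adeno-associated virus vector used to reach heart muscle, had put back wild-type LMNA (AAV9-LMNA, replicates 1 to 5), and on 3 Lmna-/- hearts whose labels name no vector (untreated, replicates 6 to 8). All mice were 2 weeks old, of a strain given as mixed, and all were Lmna knockouts; the labels state neither the vector's promoter and dose nor the animals' sex and litter. No wild-type heart and no heart given a control vector were analysed here, so the effects of LMNA and of the vector cannot be told apart. Nothing in the labels says that each library is a separate animal; p-values therefore rest on the spread between the libraries, some of which may be technical.

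Mitochondria make ATP by passing electrons from NADH and succinate along the respiratory chain to oxygen. Complex II, succinate dehydrogenase, feeds electrons from the citric acid cycle into coenzyme Q; complex III passes them to cytochrome c; complex IV, cytochrome c oxidase, hands them to oxygen; and complex V, ATP synthase, uses the proton gradient that complexes III and IV help to build. Complex II is coded wholly in the nucleus, whereas complexes III, IV and V also hold subunits coded in mitochondrial DNA. Heart muscle relies on this system for its contraction, and in rodents several small subunits of complex IV have a heart form and a liver form, the heart form replacing the liver form in heart around birth.

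Promoters are given as examples for 3 members, picked because they rose and hold a motif of a factor known for mitochondrial or muscle genes. Sequences are RefSeq's on GRCm38.p6, 300 bases from 250 before the start to 50 after it, read 5′ to 3′ on the gene's own strand, which is the minus strand for all of these. Capitals mark the motif. Cycs is at chr6:50566520-50566819, with the core of the NRF1 site, GCGCATGCG, on the other strand from position -61. Atp5k is at chr5:108434350-108434649, with the same core on both strands, overlapping, from -50 and -49, and the nuclear receptor half-site AAGGTCA from position 24. Cox8b is at chr7:140900397-140900696, with the E-box of muscle factors, CAGCTG, from -19 and from 17.
Cycs: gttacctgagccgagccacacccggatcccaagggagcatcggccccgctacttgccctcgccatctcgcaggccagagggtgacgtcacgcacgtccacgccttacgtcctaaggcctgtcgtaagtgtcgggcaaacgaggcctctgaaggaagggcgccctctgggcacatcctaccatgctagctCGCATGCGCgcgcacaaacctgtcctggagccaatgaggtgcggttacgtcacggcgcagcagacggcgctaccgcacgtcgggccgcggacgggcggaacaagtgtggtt
Atp5k: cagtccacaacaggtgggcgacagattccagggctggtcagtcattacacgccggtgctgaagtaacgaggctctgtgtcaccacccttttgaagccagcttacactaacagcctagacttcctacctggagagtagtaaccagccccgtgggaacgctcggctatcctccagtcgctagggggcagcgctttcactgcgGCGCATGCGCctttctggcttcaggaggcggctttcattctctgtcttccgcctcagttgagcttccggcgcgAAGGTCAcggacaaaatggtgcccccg
Cox8b: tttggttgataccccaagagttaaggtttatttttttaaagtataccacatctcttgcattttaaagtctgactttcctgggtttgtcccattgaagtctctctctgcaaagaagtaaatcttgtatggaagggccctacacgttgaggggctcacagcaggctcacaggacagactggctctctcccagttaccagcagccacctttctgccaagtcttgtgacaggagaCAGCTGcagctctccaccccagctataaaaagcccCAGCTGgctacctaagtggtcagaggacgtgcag

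Promoter windows were matched by symbol for 40 members, which gave 43 windows of 32851 in all. Not matched were Sdhc, Cyc1, Uqcrb, Uqcrc2, Uqcrq, Cox4i1, Cox4i2, Cox6a2, Cox6c, Cox8c, Atp5a1, Atp5f1, Atp5mpl and Atp5s. The NRF1 core stood, on either strand, in 16.3% of member windows and in 1.75% of all windows; its 7 members were Atp5g2, Atp5k, Atp5l, Cox6a1, Cycs, Uqcr11 and Uqcrc1. AAGGTCA stood in 11.6% of member windows against 4.72% of all, and its longer form TCAAGGTCA, which contains it, in 4.65% against 0.423%. The YY1 motif AAGATGGCG was found in 4.65% of member windows and 1.4% of all, and CAGCTG in 4.65% of member windows and 16.3% of all. Neither the ETS motif ACCGGAAGT (1.1% of all windows) nor the MEF2 core CTATTTATA (0.429% of all) was found in a member's window. Members with a motif did not all rise: 5 of 7 did for the NRF1 core, 2 of 5 for AAGGTCA and 2 of 2 for CAGCTG. For TCAAGGTCA and the YY1 motif it was 0 of 2 each. Atp5l, which holds the NRF1 core and AAGGTCA, and Sdhd, which holds AAGGTCA and TCAAGGTCA, were not tested and could not be called. These counts therefore include untested members, unlike the 34 of 47 tested members that rose. A match is a stretch of letters and does not show that a factor binds.

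Counts on features ran from 21439956 to 26492443 per library. Lmna itself, the gene that checks the labels, was higher in AAV9-LMNA libraries; the labels do not say whether the vector carries the mouse or the human sequence, so reads of a human one would be counted here only where they align to mouse Lmna. It was at 227 to 747 CPM (counts per 1e6 counts on features) in AAV9-LMNA and 32.3 to 68.7 CPM in untreated libraries, a log2 fold change of 3.03 (edgeR's quasi-likelihood test, adjusted p = 0.00486). Ventricular muscle markers were abundant in both groups, with summed levels of 62180 to 74470 CPM in AAV9-LMNA and 50990 to 77050 CPM in untreated libraries. Libraries of the untreated group stood apart: atrial markers summed to 59.1 to 177 CPM in AAV9-LMNA libraries, against 80.9, 63.1 and 978 CPM in untreated 6, 7 and 8, and reads outside annotated features made up 12.1 to 12.9% in AAV9-LMNA libraries, against 24.7, 16.8 and 18.4% in untreated 6, 7 and 8. Results are therefore also given without untreated 6 and 8. In whole tissue, fewer cells of a type and less RNA per cell cannot be told apart.

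Scaled over all features together, transcripts of all 4 complexes were more abundant in AAV9-LMNA hearts. How far this depends on the scaling is given below. In a test over 26717 Ensembl and NONCODE features together, with Benjamini-Hochberg adjustment over all of them at 0.05, 34 of the 47 tested members rose, none fell and 13 did not pass. Across all features 10.6% rose and 15% fell, and of the 13785 protein-coding genes tested 18.4% rose. The median log2 fold change, AAV9-LMNA over untreated, was 0.50 for members, 0.21 for protein-coding genes and -0.03 for all features. No member below 0 reached even an unadjusted p under 0.05 (0 members), and DESeq2 and limma-voom also called 0 lower. In 35 members every AAV9-LMNA library lay above every untreated library, which was so for 13.8% of all features.

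Summed over its nuclear genes, each complex stood in AAV9-LMNA libraries at 1.38 to 1.44 times its mean level in untreated libraries. These sums are given for the scaling over all features alone. All members together came to 27920, 27410, 27840, 27750 and 27730 CPM in AAV9-LMNA libraries 1 to 5, against 20700, 19980 and 18850 CPM in untreated libraries 6 to 8. Atp5a1 and Atp5b alone made up 50.3% of the summed CPM of the tested members. In AAV9-LMNA libraries they averaged 7190 and 6732 CPM of the 16630 CPM of complex V, so its sum mostly follows them. Sdhd and Atp5l, at 0 counts, and Cox6a2, at 11 counts in all, add almost nothing to the sums. As a share of each library's deposited counts on features, members took 2.65 to 2.74% in AAV9-LMNA and 1.94 to 2.10% in untreated libraries, with no overlap. Such a share scales each library to its total, so it also depends on the other Ensembl and NONCODE features counted.

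**Figure D1:**
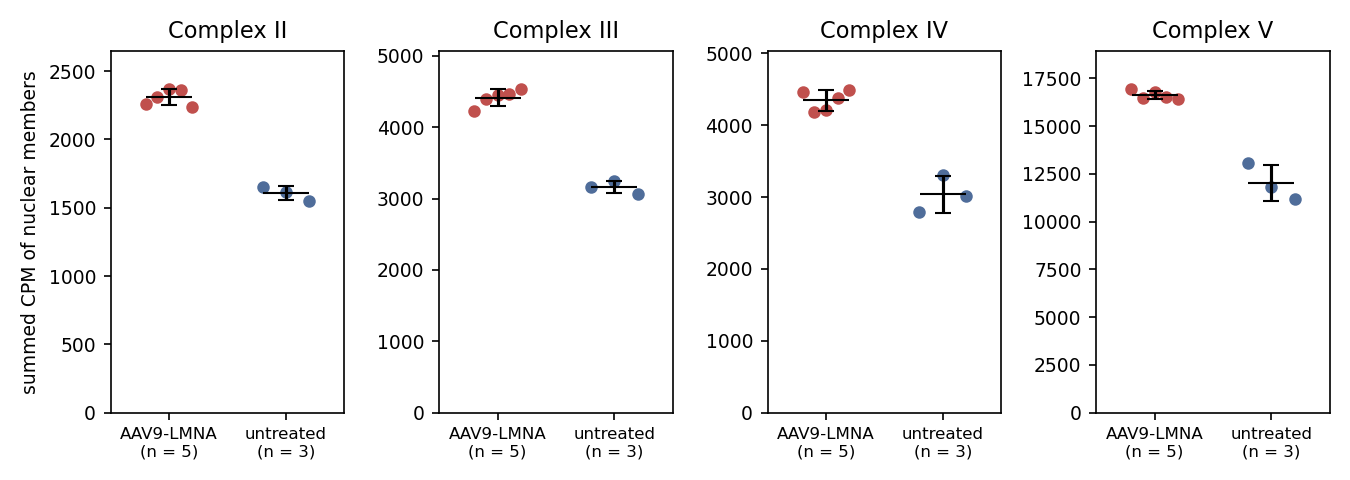
Summed level of the nuclear members of each complex, in CPM, in each AAV9-LMNA library (red, n = 5) and each untreated library (blue, n = 3); the long dash is the mean and the bars are the SD. In each of the 4 complexes all AAV9-LMNA libraries sit above all untreated libraries with this scaling over all features. For complex V the means are 16630 and 12020 CPM.

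How many members are called depends on which features are scaled and tested together. With the Ensembl features alone, 14 members rose and 0 fell, against a background of 4.33% of 15256 features called higher, and the member median was 0.30 against 0.02 for protein-coding genes; this scaling moved the log2 fold change of the same features by a median of -0.19. Members have short transcripts, with a median of 727 bases (360 to 4323) against 2775 bases for the protein-coding genes tested. Over 11600 protein-coding genes with a mean log2 CPM above 1, log2 fold change and transcript length had a Spearman correlation of -0.40 across genes, which are not independent replicates. After a correction of each library for length and GC content, with a curve over all Ensembl genes, 2 members rose, Atp5k and Sdhc, at a background of 2.98%; the median of members was 0.24 against 0.04 for protein-coding genes. With the curve over protein-coding genes, chosen after seeing the data because the first curve left a correlation of -0.10, 1 member rose, Sdhc, at a background of 2.32%, and the member median was 0.09 against 0.00. By complex, the member medians with the curve over protein-coding genes were 0.21 (II), 0.10 (III), 0.06 (IV) and 0.05 (V). Over 11647 protein-coding genes the correlation was -0.10 with the first curve and -0.002 with the second. Among the 47 members alone it was -0.18 without a correction, -0.18 with the first curve and 0.33 with the second. Why members and protein-coding genes differ here was not tested.

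Without untreated 6 and 8, which leaves untreated 7 alone and assumes that it varies like the AAV9-LMNA libraries, 22 members rose and 0 fell, at a background of 3.81%. The median of members was then 0.42, against 0.15 for protein-coding genes. With each library left out in turn, 30 to 35 members rose, and 28 of the 34 rose in all 8 of these fits. The exceptions were Cycs and Uqcrq, each lost in 7 of the 8, Atp5h in 6, Atp5d in 4, Atp5e in 2 and Uqcrb in 1.

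**Figure D2:**
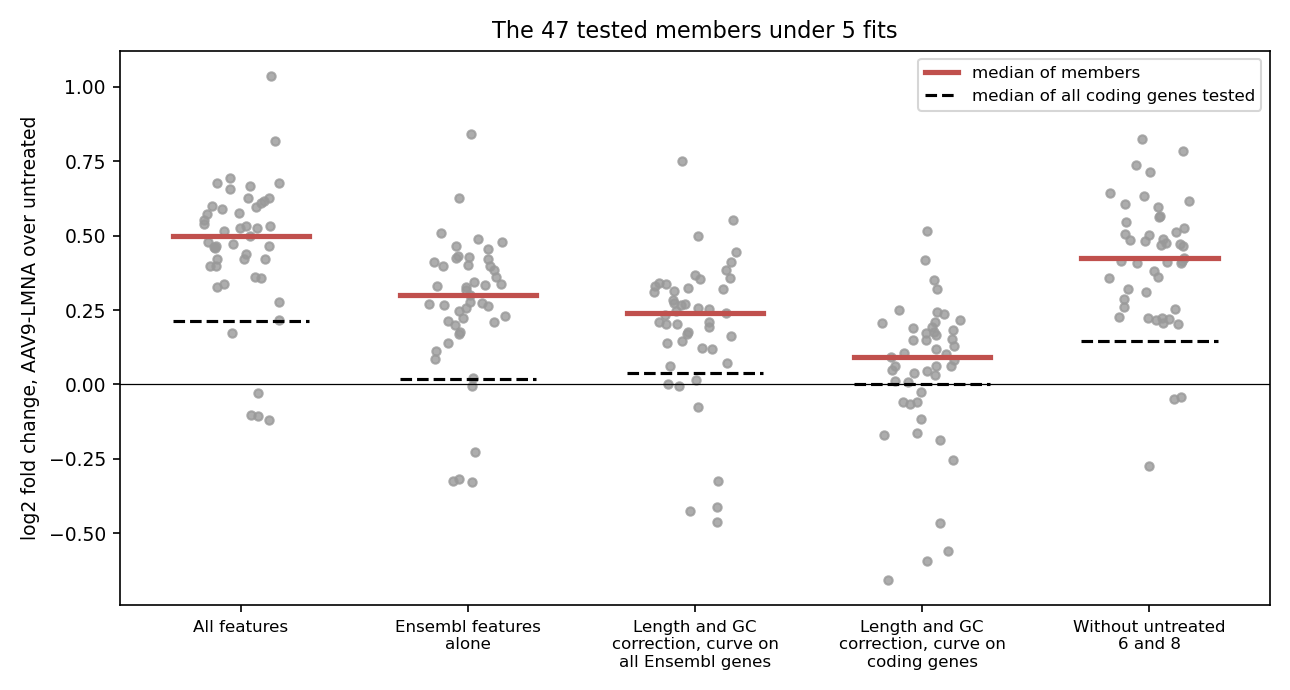
Log2 fold change, AAV9-LMNA over untreated, of the 47 tested members (grey points, spread sideways for visibility) in 5 fits; red lines are medians of members and dashed lines medians of all protein-coding genes tested. The member median is 0.50 with all features, 0.30 with Ensembl features alone, 0.24 and 0.09 with the length and GC corrections and 0.42 without untreated 6 and 8.

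Most members that were not called had low levels. Of the 34 members with a mean of at least 25 CPM, 33 rose, the exception being Cox7a2; of the 13 below it, 1 rose, Cox4i2. The median level was 264 CPM among members that rose and 6.91 CPM among those not called. Several members sit in sequence shared with other genes: 23 have a stretch of 50 bases in common with another gene's transcripts, and in 5 (Atp5g2, Atp5l, Atp5g1, Cox7c and Atp5h) at least 50% of their 50-base stretches are shared. Reads that overlap more than 1 feature were dropped as ambiguous, 21.03 to 26.37% per library of reads on features, outside them or ambiguous. A further 31188497 to 40285518 alignments per library, listed as not unique and outside that percentage, were not counted either. Whether these losses set the low members was not tested.

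**Figure D3:**
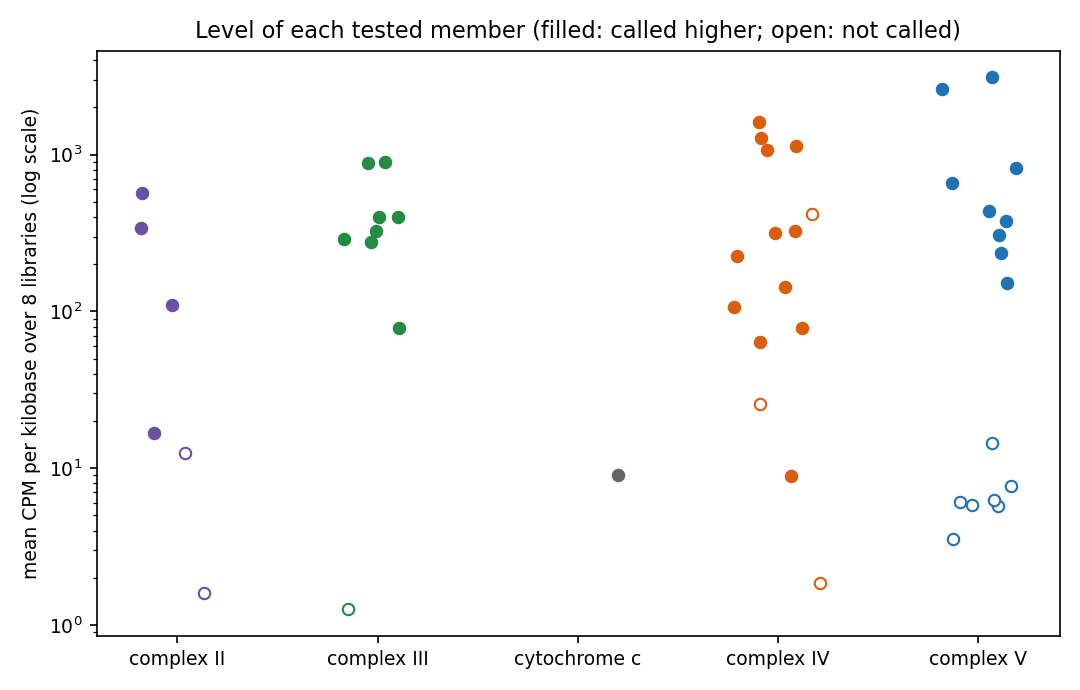
Mean level over all 8 libraries, in CPM per kilobase of transcript on a log axis, of each tested member by complex; filled points rose in AAV9-LMNA, open points were not called. Apart from Cox7a2 at 420, every open point lies at 25.7 CPM per kilobase or lower.

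In complex II, 4 of the 6 tested genes rose, with a median log2 fold change of 0.50. Sdhb, the iron-sulfur subunit (chr4:140961203-140979193, plus strand, GRCm38), had the smallest p and the highest level per length of the complex, 570 CPM per kilobase. Its levels were 724, 748, 734, 770 and 753 CPM in AAV9-LMNA libraries, against 492, 508 and 478 CPM in untreated libraries. The groups did not overlap, and each was tight: 746 ± 17.5 CPM (SD, n = 5) in AAV9-LMNA and 493 ± 14.7 CPM (SD, n = 3) in untreated libraries. The log2 fold change was 0.60 ± 0.08 (standard error), with an adjusted p of 0.00178 by edgeR's quasi-likelihood test, and 0.40 with Ensembl features alone (adjusted p = 0.0199).

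Sdhc (chr1:171127165-171150603, minus strand), a membrane anchor that helps bind coenzyme Q, was the only member called in every one of the 5 fits drawn in the plot of fits. Its levels were 382, 382, 400, 396 and 394 CPM in AAV9-LMNA libraries, against 254, 297 and 264 CPM in untreated libraries, and no untreated library reached the lowest AAV9-LMNA library. The log2 fold change was 0.52 ± 0.09 (edgeR, adjusted p = 0.00381). By edgeR it was 0.34 with the curve over all Ensembl genes (adjusted p = 0.0474). With the curve over protein-coding genes it was 0.32 (adjusted p = 0.0436). In that last fit Sdhc was the 1 member called of 47, beside 2.32% of all features called higher. The Sdhc transcript is long for a member, 3171 bases.

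Sdha, the flavoprotein that oxidises succinate, averaged 1099 ± 54.7 CPM in AAV9-LMNA and 789 ± 65.8 CPM in untreated libraries (log2 fold change 0.48). Sdhaf2, which attaches the flavin to that subunit, rose by 0.47. The other assembly factors were not called: Sdhaf4 had a log2 fold change of 0.58 with an adjusted p of 0.0716 by edgeR and passed with DESeq2 (adjusted p = 0.0378). Sdhaf3, which helps mature the iron-sulfur subunit, had the largest p and the lowest level per length, 1.599 CPM per kilobase. It measured 7.52, 7.69, 5.79, 8.29 and 6.79 CPM in AAV9-LMNA libraries, against 4.35, 7.50 and 7.35 CPM in untreated libraries, so the groups overlapped. Sdhd, the other anchor, and the assembly factor Sdhaf1 are listed at 0 counts in all 8 libraries. By counting error only, that allows up to 0.113 to 0.142 CPM (3 counts per library). Reads dropped as ambiguous or not unique fall outside this limit, so it does not bound the RNA itself. Whether such reads were lost was not tested. With Ensembl features alone 2 of the 6 rose, Sdhb and Sdhc.

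All 9 nuclear genes of complex III were tested and 8 rose, with a median log2 fold change of 0.47. The smallest p belonged to Uqcrc2 (chr7:120635176-120659524, plus strand), a core subunit. Its levels were 816, 874, 891, 848 and 807 CPM in AAV9-LMNA libraries, against 622, 617 and 558 CPM in untreated libraries. The groups were apart by more than the range within either, and the log2 fold change was 0.50 ± 0.09 (edgeR, adjusted p = 0.00436). Its partner in the core, Uqcrc1, measured 1641 ± 55.8 CPM in AAV9-LMNA and 1184 ± 62.5 CPM in untreated libraries (log2 fold change 0.47). The catalytic subunits rose as well, Cyc1, cytochrome c1, by 0.52, and Uqcrfs1, the Rieske iron-sulfur protein, by 0.46.

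Among the small subunits of complex III, log2 fold changes of those that rose were 0.36 for Uqcrq, 0.44 for Uqcrb, 0.46 for Uqcrh and 0.59 for Uqcr11. Uqcrh, the hinge protein next to cytochrome c1, had the highest level per length, 890 CPM per kilobase, just above Uqcrc1 at 889. Uqcrh measured 571, 533, 538, 543 and 525 CPM in AAV9-LMNA libraries, against 370, 412 and 403 CPM in untreated libraries. Uqcr10 had the lowest level per length and the largest p: it measured 0.748, 0.530, 0.901, 0.816 and 0.408 CPM in AAV9-LMNA libraries, against 0.369, 0.384 and 0.227 CPM in untreated libraries, 100 counts in all. Its groups did not overlap, yet with so few counts the log2 fold change of 1.04 had a standard error of 0.40 and an adjusted p of 0.0785. With Ensembl features alone 1 of the 9 rose, Uqcr11 (0.40, adjusted p = 0.0179), while Uqcrb, Uqcrh, Uqcrc1, Uqcrc2, Uqcrfs1, Uqcrq and Cyc1 had values of 0.17 to 0.32.

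Cytochrome c, the carrier between complexes III and IV that also triggers apoptosis when released from mitochondria, is coded in somatic tissue by Cycs (chr6:50562563-50566538, minus strand), whose promoter with the NRF1 core is given above. Its levels were 31.3, 27.96, 27.75, 35.47 and 38.85 CPM in AAV9-LMNA libraries, against 15.01, 27.97 and 20.38 CPM in untreated libraries. Untreated 7 lay level with the lowest AAV9-LMNA libraries, so the groups overlapped. The log2 fold change was 0.61 ± 0.19 (edgeR, adjusted p = 0.0385), 0.22 without untreated 6 and 8 (adjusted p = 0.485) and 0.43 with Ensembl features alone (adjusted p = 0.127). Of its 50-base stretches 28.2% are shared with other genes, and at 8.99 CPM per kilobase it stood below every member of complex III other than Uqcr10.

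In complex IV, 12 of 15 tested genes rose, with a median log2 fold change of 0.55. That was the highest median of the 4 complexes with all features, but with the curve over protein-coding genes complex II was highest (0.21) and complex IV stood at 0.06. Cox5b (chr1:36691449-36693681, plus strand), which carries a zinc site on the matrix side, had the smallest p. Its levels were 58.4, 60.8, 64.1, 69.5 and 64.1 CPM in AAV9-LMNA libraries, against 42.3, 41.2 and 39.6 CPM in untreated libraries, without overlap. The log2 fold change was 0.63 ± 0.09 (edgeR, adjusted p = 0.00270). Cox4i1, the broadly used form of subunit 4, had the highest level per length, 1620 CPM per kilobase; it measured 1435, 1296, 1353, 1350 and 1389 CPM in AAV9-LMNA libraries, against 866, 990 and 973 CPM in untreated libraries. That is a log2 fold change of 0.53 with groups well apart.

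The other members of complex IV that rose and have a single form in heart were Cox5a (0.68), Cox7a2l (0.62), Cox7c (0.55), Cox7b (0.42) and Ndufa4 (0.40). Cox7a2l is a factor of supercomplexes of III and IV, and Ndufa4, named for complex I, is a subunit of complex IV. Cox5a was uneven between libraries, with 194, 255, 256, 275 and 236 CPM in AAV9-LMNA, against 194, 147 and 115 CPM in untreated libraries. Its highest untreated library, untreated 6, came level with AAV9-LMNA 1.

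Cox6c and Cox6b1 were not called. Cox6c had the largest p of the complex and measured 15.1, 13.6, 14.3, 16.4 and 16.4 CPM in AAV9-LMNA libraries, against 22.6, 11.5 and 14.8 CPM in untreated libraries. Untreated 6 was the highest of all 8, and the log2 fold change of -0.10 was 0.42 without untreated 6 and 8; neither passed. Cox6b1, which bridges the monomers of the enzyme, had the lowest level per length, 1.85 CPM per kilobase, and measured 1.92, 1.06, 1.09, 0.730 and 1.31 CPM in AAV9-LMNA libraries, against 0.861, 1.02 and 1.14 CPM in untreated libraries. The testis forms Cox6b2 and Cox8c are listed at 0 counts, and Cox7b2 had 11 counts over all 8 libraries.

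**Figure D4:**
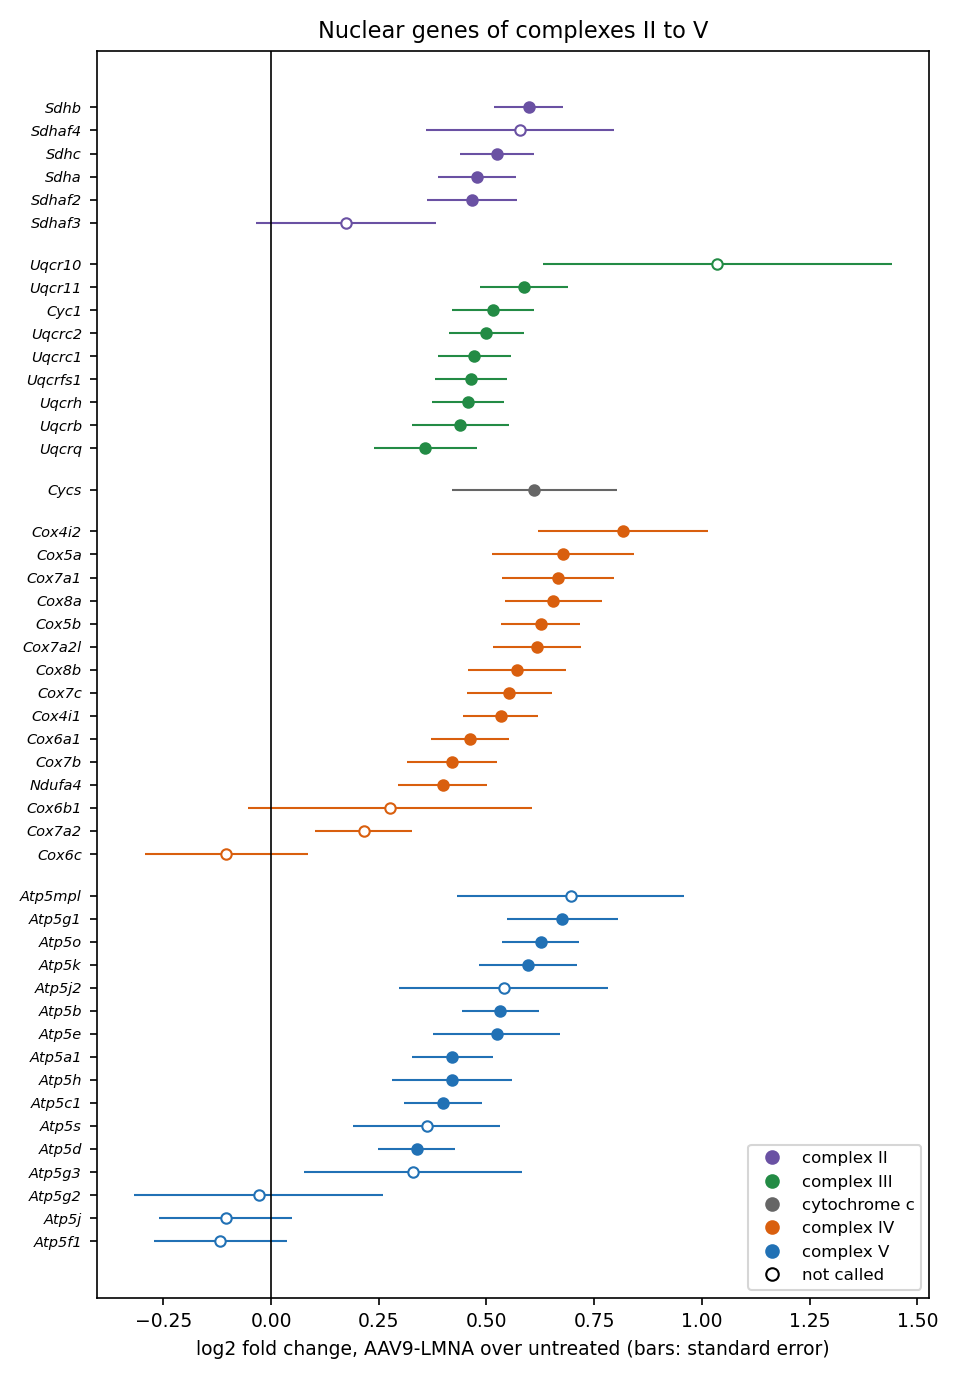
Log2 fold change, AAV9-LMNA over untreated, with its standard error, of each tested member, grouped by complex and sorted within it; filled points passed an adjusted p of 0.05 and open points did not. All 34 filled points lie to the right of 0, from 0.34 (Atp5d) to 0.82 (Cox4i2), and the 4 points left of 0 are open.

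Of the 6 heart and liver forms of complex IV, 4 rose (Cox7a1, Cox8b, Cox8a and Cox6a1), 1 was not called and 1 was not tested. Cox7a1, the heart form of subunit 7a (chr7:30184144-30186078, plus strand), measured 622, 538, 544, 610 and 602 CPM in AAV9-LMNA libraries, against 312, 459 and 332 CPM in untreated libraries. Untreated 7 came nearest to the AAV9-LMNA libraries but stayed below them. The log2 fold change was 0.67 ± 0.13 (edgeR, adjusted p = 0.00672), and 0.36 without untreated 6 and 8 (adjusted p = 0.0761).

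Cox7a2, the liver form (chr9:79755361-79759878, minus strand), measured 321, 258, 299, 260 and 321 CPM in AAV9-LMNA libraries, against 222, 256 and 277 CPM in untreated libraries. The groups overlapped and it was not called (log2 fold change 0.22 ± 0.11, adjusted p = 0.175 by edgeR). Within a library, where scaling between libraries plays no part, the ratio of Cox7a1 to Cox7a2 counts was 1.94, 2.08, 1.82, 2.35 and 1.87 in AAV9-LMNA, against 1.40, 1.79 and 1.20 in untreated libraries. All 5 AAV9-LMNA ratios lay above all 3 untreated ones, with a mean log2 ratio of 1.00 ± 0.15 (SD, n = 5) in AAV9-LMNA and 0.53 ± 0.29 (SD, n = 3) in untreated libraries. Untreated 7, at a log2 ratio of 0.84, lay just below the lowest AAV9-LMNA library, replicate 3, at 0.86. The two-sided exact permutation test over 56 choices of libraries gave p = 0.0179, the smallest it can give, and 0.0714 after adjustment over 4 ratios, so this ratio did not pass.

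Cox8b, the heart form of subunit 8 (chr7:140898945-140900446, minus strand), whose promoter with 2 E-boxes is given above, measured 490, 440, 419, 474 and 488 CPM in AAV9-LMNA libraries, against 265, 363 and 306 CPM in untreated libraries. Cox8a, its liver form (chr19:7215153-7217616, minus strand), measured 121, 144, 136, 156 and 160 CPM in AAV9-LMNA libraries, against 96.1, 94.9 and 81.9 CPM in untreated libraries. Both rose with no overlap, Cox8b by 0.57 ± 0.11 (edgeR, adjusted p = 0.00708) and Cox8a by 0.66 ± 0.11 (adjusted p = 0.00428). The ratio of Cox8b to Cox8a was 4.04, 3.07, 3.09, 3.04 and 3.04 in AAV9-LMNA, against 2.76, 3.82 and 3.73 in untreated libraries, overlapping (exact permutation p = 0.607).

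Cox6a1, the liver form of subunit 6a (chr5:115345642-115348981, minus strand), measured 63.2, 68.3, 66.5, 68.9 and 72.1 CPM in AAV9-LMNA libraries, against 53.2, 47.5 and 46.9 CPM in untreated libraries. It rose by 0.46 ± 0.09 (edgeR, adjusted p = 0.00674). Cox6a2, the heart form (chr7:128205435-128206387, minus strand), which is abundant in adult heart muscle, had only 11 counts over all 8 libraries, at most 3 in any one, and was not tested. Its exons overlap Itgad on the opposite strand, and none of its 50-base stretches is shared; whether reads were lost as ambiguous was not tested.

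Per kilobase of transcript, over all 8 libraries, the heart forms Cox7a1 and Cox8b stood at 1278 and 1126 CPM. The liver forms Cox7a2, Cox8a and Cox6a1 stood at 420, 225 and 106 CPM. The heart form Cox6a2, with 11 counts in all, went the other way, at 0.0854 CPM. Cox4i2, the lung form of subunit 4, was at 8.88 CPM per kilobase beside 1620 for Cox4i1. It measured 6.68, 7.77, 9.25, 6.18 and 8.65 CPM in AAV9-LMNA libraries, against 3.53, 4.73 and 4.86 CPM in untreated libraries, and rose by 0.82 ± 0.20 (edgeR, adjusted p = 0.0150). Its ratio to Cox4i1 differed by 0.28 on the log2 scale, within the spread between libraries (exact permutation p = 0.179, 0.357 after adjustment over 4 ratios). With Ensembl features alone 8 of the 15 tested genes of complex IV rose, among them Cox7a1, Cox8a, Cox8b and Cox4i2; without untreated 6 and 8, 7 rose, Cox8a among them, but not Cox7a1, Cox8b or Cox4i2.

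**Figure D5:**
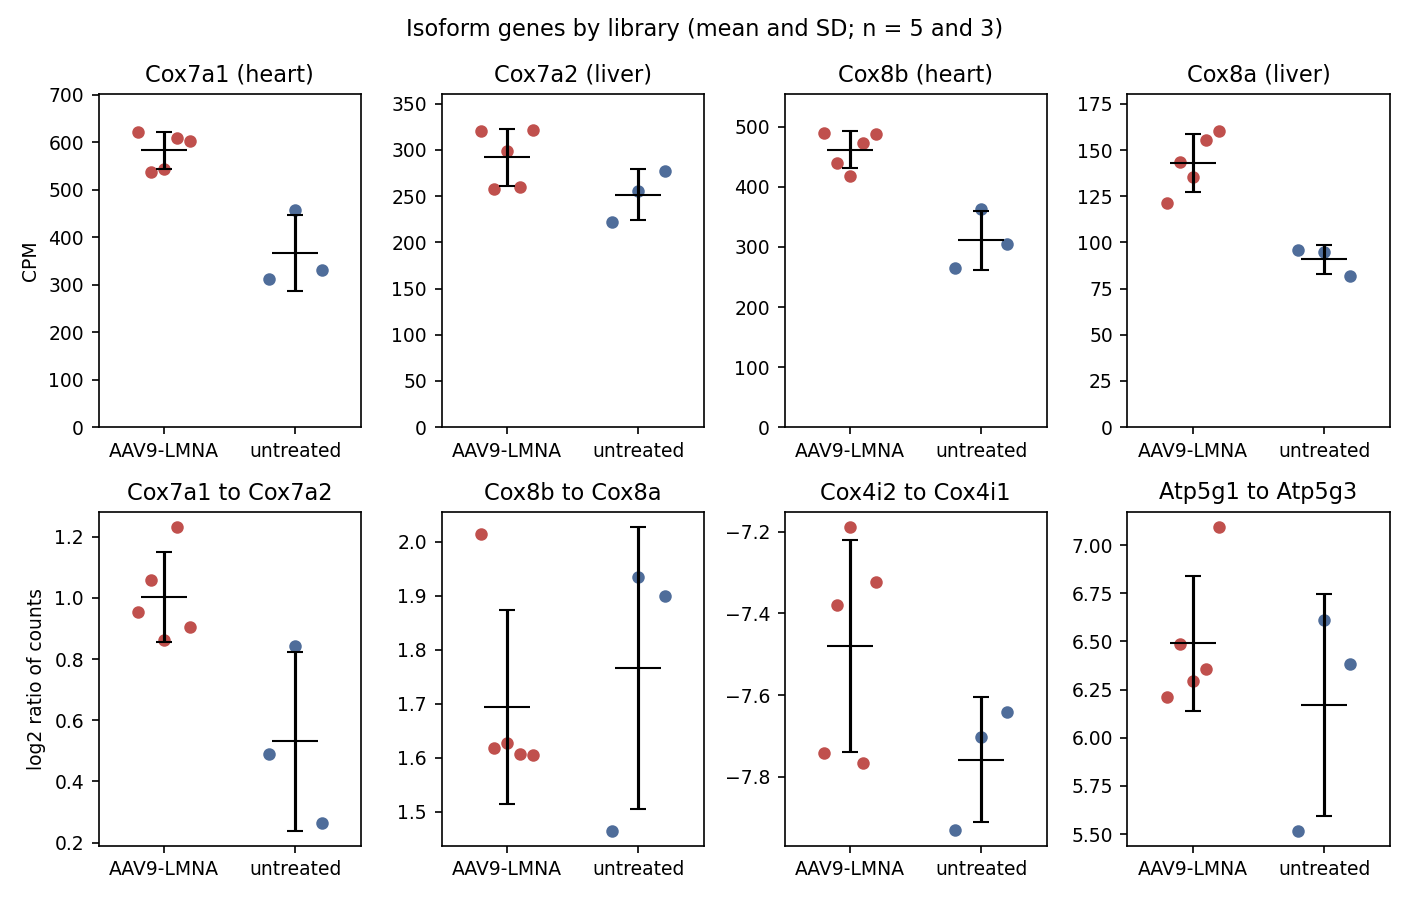
Upper row: level in CPM of the heart and liver forms of subunits 7a and 8 in each AAV9-LMNA library (red, n = 5) and untreated library (blue, n = 3). Lower row: log2 ratio of counts within each library for 4 pairs of genes, on axes that do not start at 0; long dashes are means and bars are SD. Only for Cox7a1 to Cox7a2 do all AAV9-LMNA ratios lie above all untreated ones, at means of 1.00 and 0.53.

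In complex V, 9 of 16 tested genes rose, with a median log2 fold change of 0.42. All 5 genes of the F1 head, where ATP is made, rose: Atp5a1 (alpha) by 0.42, Atp5b (beta) by 0.53, Atp5c1 (gamma) by 0.40, Atp5d (delta) by 0.34 and Atp5e (epsilon) by 0.52. These 5 were not called with Ensembl features alone, at log2 fold changes of 0.21, 0.33, 0.20, 0.14 and 0.34 in that order. Nor were they called after correction for length and GC content. Their median was 0.17 with the curve over all Ensembl genes and 0.03 with the curve over protein-coding genes. Atp5b had the highest level per length of all members, 3107 CPM per kilobase. It measured 6949, 6657, 6837, 6594 and 6623 CPM in AAV9-LMNA libraries, against 5074, 4651 and 4246 CPM in untreated libraries. The groups were well apart (edgeR, adjusted p = 0.00403), and Atp5a1 followed with 7190 ± 136 CPM in AAV9-LMNA and 5371 ± 625 CPM in untreated libraries.

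In the peripheral stalk, which holds the head still against the membrane part, the abundant genes were called and the low ones were not. Atp5o, its oligomycin sensitivity subunit (chr16:91925214-91931687, minus strand), had the smallest p of the complex, with 225, 205, 242, 235 and 235 CPM in AAV9-LMNA libraries, against 141, 148 and 155 CPM in untreated libraries. It rose by 0.63 ± 0.09 (edgeR, adjusted p = 0.00247), and it shares 35.5% of its 50-base stretches with other genes, most with the second gene named Atp5o. Atp5h, subunit d, rose by 0.42. Atp5f1, subunit b, and Atp5j, coupling factor 6, had log2 fold changes of -0.12 and -0.10 and were not called. Atp5f1 averaged 9.47 ± 1.32 CPM in AAV9-LMNA and 10.3 ± 0.95 CPM in untreated libraries, and per kilobase of transcript Atp5f1 and Atp5j stood at 6.09 and 14.5 CPM, beside 236 for Atp5o and 151 for Atp5h.

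The c ring turns as protons pass, and its subunit comes from Atp5g1, Atp5g2 and Atp5g3, whose mature proteins are the same. Atp5g1 carried nearly all the counts and rose by 0.68 ± 0.13 (edgeR, adjusted p = 0.00591): 230, 240, 214, 262 and 294 CPM in AAV9-LMNA libraries, against 138, 181 and 146 CPM in untreated libraries. Atp5g2 had the largest p of the complex, with 2.52, 2.58, 1.99, 3.78 and 1.68 CPM in AAV9-LMNA libraries, against 2.71, 3.07 and 1.91 CPM in untreated libraries, and all of its 50-base stretches are shared with other genes. Atp5g3 had the lowest level per length, 3.55 CPM per kilobase, with 3.08, 2.65, 2.70, 3.18 and 2.13 CPM in AAV9-LMNA libraries, against 2.99, 1.83 and 1.73 CPM in untreated libraries. Both overlapped between groups, and the ratio of Atp5g1 to Atp5g3 differed by 0.32 on the log2 scale (exact permutation p = 0.464).

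Of the small membrane subunits, Atp5k, subunit e, which helps join ATP synthase into dimers, rose by 0.60 ± 0.11 (edgeR, adjusted p = 0.00612). It measured 167, 157, 154, 163 and 164 CPM in AAV9-LMNA libraries, against 85.3, 121 and 113 CPM in untreated libraries. Its promoter, given above, holds the NRF1 core. Atp5j2, subunit f, and Atp5mpl, the 6.8 kDa proteolipid, were at 0.54 and 0.70 without passing, though Atp5mpl passed with DESeq2 (adjusted p = 0.0380), and Atp5s, coupling factor B, was at 0.36. Atp5l, subunit g, is listed at 0 counts in all libraries, and 68.5% of its 50-base stretches are shared. With Ensembl features alone 3 of the 16 genes rose, Atp5g1, Atp5k and Atp5o.

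Other genes of the pathway, from lists of assembly factors and of coenzyme Q synthesis, were called in the same direction: 29 of 45 tested rose, 0 fell (0 at an unadjusted p under 0.05; edgeR) and 16 were not called. Beside them, 10.6% of all features and 18.4% of the protein-coding genes tested rose. The count was 11 with Ensembl features alone, 7 and 5 with the length and GC corrections and 13 without untreated 6 and 8. The background called higher was 4.33% of features with Ensembl features alone and 2.98 and 2.32% with the 2 corrections. Of 6 assembly factors of complex III, 4 rose, Uqcc1 (0.70), Uqcc3 (0.44) and Lyrm7 (0.76), a chaperone of the Rieske protein, among them, with a median of 0.57. Of 22 tested factors of complex IV, 12 rose and the median of all 22 was 0.57; the smallest p-values belonged to Lrpprc (0.68), which stabilises mitochondrial mRNA, Cmc2 (0.71) and Cox15 (0.59), which makes heme A. Sco2, Cox14, Pet117 and Higd2a are listed at 0 counts and Cox20 had at most 3. For complex V, 3 of 4 rose, Atpaf2 (0.63), Tmem70 (0.61) and Tmem242 (0.45). For coenzyme Q, 10 of 13 rose and the median of all 13 was 0.55; the smallest p-values belonged to Coq9 (0.63), Coq2 (0.52) and Coq5 (0.70).

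Genes of complexes III to V that lie in mitochondrial DNA gave little to compare. Of 6, 4 were tested and 1 rose: mt-Co1, the catalytic subunit of complex IV, at 84080, 79070, 78910, 81020 and 68210 CPM in AAV9-LMNA, against 57240, 65270 and 61790 CPM in untreated libraries (log2 fold change 0.35, edgeR, adjusted p = 0.0263). mt-Cytb, the catalytic subunit of complex III, was at -0.14 and not called. mt-Co2 and mt-Co3 had at most 26 and 30 counts in a library, mt-Atp6 at most 8 and mt-Atp8 none, although these RNAs are normally abundant in heart.

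Markers of cells that also use these genes were measured beside them, and their part in the members' change was not tested. Of 10 ventricular markers, 3 rose, Ckm (0.61) and Myl3 (0.37) among them, and 1 fell, Actn2 (-0.43). Of 4 tested atrial markers 3 fell, Myl7, Myl4 and Bmp10; their counts in the untreated group lay mostly in untreated 8. Myl7 was at 0.285 to 0.796 CPM in AAV9-LMNA libraries, against 4.51, 1.71 and 308 CPM in untreated 6, 7 and 8. Brown fat, which uses Cox7a1 and Cox8b as well, had summed markers of 40.5 to 48.3 CPM in AAV9-LMNA and 18.6 to 34.5 CPM in untreated libraries; of 2 tested, 1 rose, Cidea (0.76), while Ucp1, Elovl3 and Adipoq had at most 3 counts in a library. Skeletal muscle markers summed to 5.61 to 7.97 CPM in AAV9-LMNA and 4.61 to 11.5 CPM in untreated libraries, with 0 of 3 called by edgeR (1, Tnnt3 at -0.94, at an unadjusted p under 0.05). Endothelial markers included 2 that rose, Egfl7 and Tie1, of 6.

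Of fibroblast (7 tested), smooth muscle and pericyte (5), macrophage (6), lymphocyte (2) and erythroid (6) markers, 0 passed by edgeR; at an unadjusted p under 0.05 the counts were 0, 1, 1, 1 and 0, all higher in AAV9-LMNA. The smallest p of each of these lists belonged to Dcn (log2 fold change 0.21), Rgs5 (0.31), Cd68 (0.94), Ms4a1 (2.32) and Hba-a2 (2.96), in that order. Fibroblast markers summed to 2322 to 3441 CPM in AAV9-LMNA libraries, against 1171, 3172 and 3435 CPM in untreated 6, 7 and 8. Macrophage markers summed to 357 to 384 CPM in AAV9-LMNA libraries, against 134, 405 and 222 CPM in untreated 6, 7 and 8, so in both lists untreated 6 was the lowest library.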

How the data were processed

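The authors deposited 1 table of raw read counts per library, whole numbers without normalization, for Ensembl and NONCODE (version 5) genes counted without strand, per the file headers and names; per the submitters' processing notes TopHat2, HTSeq, edgeR and limma were used on GRCm38 (mm10). Each table ends in 5 summary lines, which were left out here: reads outside features were 12.05 to 24.69% and ambiguous reads 21.03 to 26.37% of reads on features, outside them or ambiguous. Counting without strand cannot separate a gene from an overlapping antisense one; exons of 16 members overlap another annotated gene, and NONCODE coordinates were not used here.

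Members were matched by Ensembl ID to GENCODE M21. Members, lists and tests were chosen with earlier results of these data known. edgeR 4.0.16 (R 4.3.3) was run with filterByExpr, TMM over all features, a robust quasi-likelihood test of the group and Benjamini-Hochberg adjustment over all features tested; the standard error is the size of the log2 fold change divided by the root of its F. CPM used TMM library sizes. Levels per kilobase used the transcript of median length among the gene's basic CCDS transcripts. Counts were 21439956 to 26492443 per library, so 3 counts, the limit a count of 0 allows by counting error alone, are 0.113 to 0.142 CPM. Ratios within a library (0.5 added to each count) had two-sided exact permutation tests over 56 choices of libraries, adjusted over 4; the ratio of Cox6a2 to Cox6a1 was not computed because Cox6a2 had at most 3 counts. Promoters are RefSeq's, on GRCm38.p6. The scripts were tested on simulated counts.

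Values in every library are given for the heart and liver isoforms, the tested member of each complex with the smallest and largest p and the highest and lowest level per length, and up to 3 called genes (or 1 uncalled) are named of each list; Sdhc, Cox4i2, Cox5a, Atp5g1 and Atp5k were shown in full after their values were seen. Alternatives were RLE factors, DESeq2 1.42.0, limma-voom (3.58.1), no filter, 1 CPM in at least 3 libraries, Ensembl features alone, a loess correction (span 0.5) for transcript length and GC content passed as offsets, libraries left out, and, added after seeing the data, the same correction with its curve on protein-coding genes with a mean log2 CPM above 1.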

Additional observations from a re-analysis of the deposited data

Results flagged for a closer look

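Of 51 results tested for a library far from the others of its group, 1 stood out, and chance alone flags about 1 in 20. The log2 ratio of Cox8b to Cox8a was 2.02 in AAV9-LMNA replicate 1, whereas the other 4 AAV9-LMNA libraries lay between 1.61 and 1.63; untreated libraries spread from 1.46 to 1.93. In CPM, AAV9-LMNA replicate 1 had the highest Cox8b level of its group (490) and the lowest Cox8a level (121).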

How the results depend on the processing

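The number of members called higher was 34 with all features, 33 to 36 with RLE factors, DESeq2, limma-voom or no filter, 32 with a minimum of 1 CPM, and 30 to 35 with 1 library left out; it was 14 with Ensembl features alone, 2 and 1 with the length and GC corrections (curves over all Ensembl genes and over protein-coding genes) and 22 without untreated 6 and 8. None was called lower in any of these fits. All features called numbered 6858, against 1967, 1216, 1278 and 2143 in those same 4 fits, and 4216 (without AAV9-LMNA 2) to 10033 (without untreated 7) with 1 library left out; without AAV9-LMNA 3 and without untreated 6 there were 4227 each. Assembly and coenzyme Q genes called numbered 29, against 11, 7, 5 and 13 in the 4 fits and 20 to 31 with 1 library left out. These 4 fits scale or test fewer features, correct each library, or use fewer libraries; beyond that the cause was not tested. No paired analysis was possible because the groups share no replicate number. The ratio of Cox6a2 to Cox6a1 was not run.

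Some signs turned, among them those of 6 members called higher with all features (Uqcrh, Uqcrq, Cox6a1, Ndufa4, Atp5d and Atp5h). Sdhaf3 was at -0.005 with Ensembl features alone, -0.043 without untreated 6 and 8 and -0.031 to 0.32 with 1 library left out. Cox7a2 was at -0.074 and -0.25 and Atp5d at -0.005 and -0.12 with the 2 corrections. With the curve over protein-coding genes, Uqcrh was at -0.026, Uqcrq at -0.17, Cox6a1 at -0.064, Cox6b1 at -0.18, Ndufa4 at -0.059, Atp5g3 at -0.16 and Atp5h at -0.059. Without untreated 6 and 8, Cox6c was at 0.42 and Atp5j at 0.29; with 1 library left out they ran from -0.29 to 0.22 and from -0.25 to 0.053. Atp5g2 was at 0.011 without a filter and ran from -0.23 to 0.14. With 1 library left out, the difference in log2 ratio ran from -0.009 to 0.54 for Atp5g1 to Atp5g3 and from -0.22 to 0.012 for Cox8b to Cox8a. For Cox7a1 to Cox7a2 it ran from 0.34 to 0.63. Untreated 7 alone had log2 ratios of 6.61, 1.93 and 0.84 for these pairs, in that order. The AAV9-LMNA means were 6.49, 1.695 and 1.00. Of the 13 members under 25 CPM, 1 was called.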

Other observations

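Pseudogenes whose symbols begin as the members' do had few counts. Atp5c1-ps had 242 counts over all 8 libraries, Atp5l2-ps 19 and Atp5l-ps1 3. Uqcrh-ps1, Uqcrh-ps2, Cox6c2, Atp5l-ps2 and Atp5k-ps2 had 0. Genes of other names that share sequence, such as Gm10039 with 52.2% of the 50-base stretches of Atp5g1, were not examined. Alignments that were not unique were not counted, so these counts do not measure reads lost to pseudogenes.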
